A study of Mus musculus with 6 samples.

Results

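The light-strand mitochondrial tRNAs are the 8 mitochondrial tRNA genes annotated on the minus strand of the mitochondrial chromosome, out of 22 mitochondrial tRNA genes and 47729 genes counted. They were defined by strand and biotype alone, from the GENCODE M21 annotation of GRCm38, but this set was chosen with earlier results of these data known. They are mt-Tq, mt-Ta, mt-Tn, mt-Tc, mt-Ty, mt-Ts1, mt-Te and mt-Tp, the tRNAs for glutamine, alanine, asparagine, cysteine, tyrosine, serine (UCN codons), glutamate and proline. Their RNA was counted in extracellular vesicles (EVs), membrane-bound particles shed by cells, that were collected from WEHI-231 cells, a mouse splenic B lymphoma line. At 500000 cells per mL, the cells were stimulated for 1 h with 10 µg/mL of either the M1/69 antibody to CD24, a glycosylphosphatidylinositol-anchored B cell surface protein, or a matched isotype control, each pre-incubated with 5 µg/mL of an anti-rat secondary antibody. There were 3 libraries per condition and no unstimulated cells, the isotype antibody standing in their place, and all libraries came from 1 cell line. The isotype libraries all carried barcode 1 and the anti-CD24 libraries barcode 2, so barcode and condition cannot be told apart, and the libraries that carry the same replicate number shared a sequencing run.

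Mammalian mitochondrial DNA is transcribed along both strands into long RNAs from promoters in its non-coding control region. The transcript that starts at the light-strand promoter carries these tRNAs and a single mRNA, mt-Nd6, and the tRNAs are cut out of it at the 5′ end by mitochondrial RNase P and at the 3′ end by ELAC2. The enzyme TRNT1 then adds the CCA end, and the mature tRNAs are charged and read codons on mitochondrial ribosomes.

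Each of the 8 genes is a single non-coding exon of 66 to 71 bases. In the order in which light-strand transcription reaches them, they lie on the minus strand of GRCm38 at chrM:15356-15422 (mt-Tp), chrM:14071-14139 (mt-Te), chrM:6870-6938 (mt-Ts1), chrM:5260-5326 (mt-Ty), chrM:5192-5257 (mt-Tc), chrM:5089-5159 (mt-Tn), chrM:5018-5086 (mt-Ta) and chrM:3772-3842 (mt-Tq). The gene sequences, read from the GENCODE M21 transcripts, are shown because they are the molecules counted here. The anticodon, in capitals, gives the codon that each tRNA matches base for base, which need not be the only codon it reads. Each anticodon was located as the middle of a 7-base loop closed by a stem of 5 base pairs, and in all 8 genes it matched the amino acid of the gene's name.
mt-Tp: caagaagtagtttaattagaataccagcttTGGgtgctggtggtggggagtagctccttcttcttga
mt-Te: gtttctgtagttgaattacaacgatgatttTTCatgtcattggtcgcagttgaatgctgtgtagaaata
mt-Ts1: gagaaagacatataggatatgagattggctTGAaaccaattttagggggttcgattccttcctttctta
mt-Ty: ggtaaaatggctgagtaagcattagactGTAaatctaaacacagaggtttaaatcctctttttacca
mt-Tc: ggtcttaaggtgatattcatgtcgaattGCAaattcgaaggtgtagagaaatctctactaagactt
mt-Tn: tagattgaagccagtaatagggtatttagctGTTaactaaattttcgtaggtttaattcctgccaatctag
mt-Ta: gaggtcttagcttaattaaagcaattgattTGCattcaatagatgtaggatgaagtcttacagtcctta
mt-Tq: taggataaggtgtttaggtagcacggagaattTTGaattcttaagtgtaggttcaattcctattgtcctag

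The 8 sequences shared a base bias that goes with the strand by which they were chosen, so it is no independent finding. G exceeded C in 8 of 8 light-strand tRNAs, by 1.49 to 14.9 percentage points with a median of 8.89, and in 3 of the 14 tRNAs of the heavy strand, whose median was -2.28. Their G and C content together ran from 33.3% to 44.8% (median 35.6%), against a median of 31.8% in the heavy-strand tRNAs. The gene of mt-Ty ends in the bases cca, and the other 7 genes do not. The cc of mt-Ty is complementary to the gg at its start, so these bases are not the CCA end that TRNT1 adds. In a search of all annotated transcripts for matches of at least 30 bases at 90% identity, 1 of the 8 had a match outside its own gene. This was mt-Tn, which matched 71 bases of the nuclear gene Cep295 at 91.5% identity, and Cep295 had 0 counts in all 6 libraries. Nuclear DNA outside annotated transcripts was not searched for copies of the 8.

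Between 166129 and 794185 counts per library fell on genes, and 15626 to 112042 of them lay outside the rRNA and ribozyme genes. Levels are given in CPM, a gene's count divided by all counts on genes in its library and scaled to a fixed total, and 3 counts, taken as the floor of detection, correspond to 3.78 to 18.1 CPM. The libraries carried few mRNA counts, so the cell type could hardly be checked: 9 of 12 B cell markers had counts, among them the surface immunoglobulin gene Ighm with 23 over the 6 libraries and Cd79a with 4. Summed over the list, B cell markers had 0 to 20 counts in the isotype libraries and 7 to 13 in the anti-CD24 libraries. Of 5 T cell, 5 myeloid and 6 erythroid markers, 1, 3 and 4 had counts, which summed to 0 to 16, 0 and 0 per isotype library and to 0 to 1, 0 to 4 and 0 to 99 per anti-CD24 library. The 99 counts were globin transcripts, Hba-a1, Hba-a2, Hbb-bs and Hbb-bt, and all lay in anti-CD24 replicate 1.

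All 8 light-strand tRNAs had counts in every library, with 188 to 4361 counts in all per library, although mt-Ty was under the floor of detection in 3 libraries. Their levels were dominated by mt-Tq and mt-Tn, which held the first and second places in every library, whereas mt-Ty was the lowest of the 8 in every library. For mt-Tq, the isotype libraries had 558, 361 and 173 CPM and the anti-CD24 libraries 292, 1505 and 218 CPM, in the order of the replicate numbers. For mt-Tn, the tRNA that reads asparagine codons, the values were 459, 271 and 94.3 CPM after isotype and 226, 1605 and 302 CPM after anti-CD24. In both genes anti-CD24 replicate 2 was the highest library, isotype replicate 1 the next highest and isotype replicate 3 the lowest, and the conditions overlapped.

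The other 3 abundant members showed the same pattern. The glutamate tRNA mt-Te had 282, 78.3 and 53.7 CPM in the isotype libraries and 73.7, 1067 and 131 CPM in the anti-CD24 libraries, so that a single library lay 3.78-fold above the next highest. The cysteine tRNA mt-Tc had 301, 126.4 and 40.6 CPM after isotype and 169, 813 and 133 CPM after anti-CD24. The alanine tRNA mt-Ta had 261, 187 and 47.1 CPM after isotype and 95.04, 659 and 113 CPM after anti-CD24. For all 3, anti-CD24 replicate 2 again stood above every other library and isotype replicate 3 below.

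The members mt-Tp, mt-Ts1 and mt-Ty were much less abundant. The proline tRNA mt-Tp, the first gene behind the control region, had 46.5, 54.2 and 43.2 CPM in the isotype libraries and 26.2, 103 and 45.3 CPM in the anti-CD24 libraries. The serine tRNA mt-Ts1 had 62.0, 30.1 and 14.4 CPM after isotype and 24.6, 136 and 42.8 CPM after anti-CD24. The isotype libraries were closer together for mt-Tp (48.0 ± 5.6 CPM, mean ± SD, n = 3) than for mt-Ts1 (35.5 ± 24.3 CPM). These values rest on 15, 9 and 33 counts for mt-Tp and 20, 5 and 11 for mt-Ts1. With so few counts, this closeness cannot be told from counting error.

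The tyrosine tRNA mt-Ty was near the limit of detection. It had 2, 4 and 2 counts in the isotype libraries and 2, 25 and 12 counts in the anti-CD24 libraries, so 3 of its 6 values were under the floor of 3 counts. In CPM these were 6.20, 24.1 and 2.62 after isotype and 3.28, 33.9 and 15.1 after anti-CD24, and the conditions overlapped as for the other members.

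**Figure D1:**
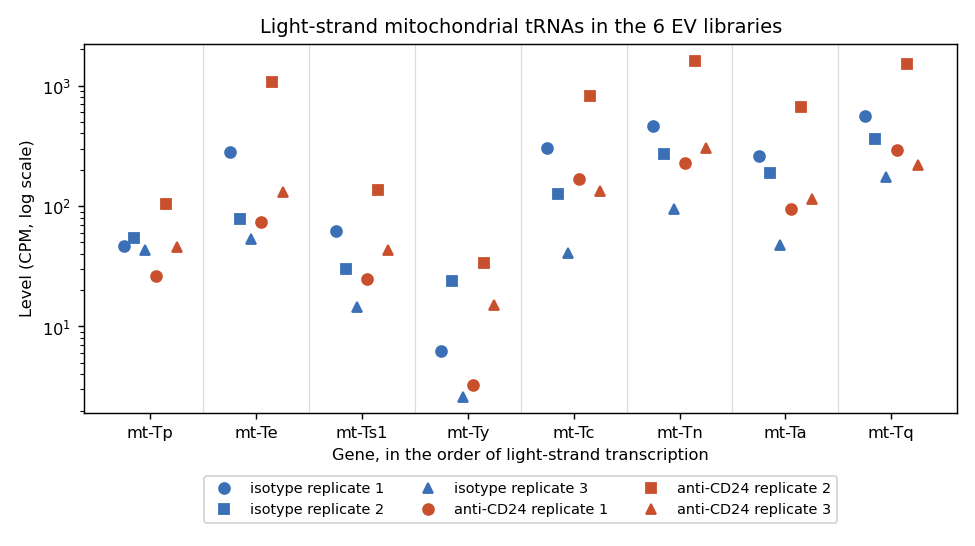
Level in CPM (log axis) of each light-strand mitochondrial tRNA, with the genes along the horizontal axis in the order of light-strand transcription, 1 point per library, blue for isotype, red for anti-CD24, and the marker shape giving the replicate number. Anti-CD24 replicate 2 (red square) is the highest library for all 8 genes, and mt-Ty is the lowest gene in every library.

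Because the genes are of nearly equal length, the order changed little when levels were divided by gene length (CPM per kb, mean ± SD over the 6 libraries). mt-Tq (7292 ± 7070) and mt-Tn (6943 ± 7851) ranked 3 and 4 among the 22 mitochondrial tRNAs, and mt-Te (4073 ± 5711), mt-Tc (3999 ± 4275) and mt-Ta (3288 ± 3252) ranked 5 to 7. mt-Tp (793 ± 391) and mt-Ts1 (748 ± 643) ranked 13 and 14, and mt-Ty (212 ± 189) ranked 19. Except for mt-Tp, these SDs were close to or above the means, so neighbours in the order were also compared within libraries.

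Within libraries, the order held at 3 steps. mt-Tn was above mt-Te in 6 of 6 libraries, mt-Ta was above mt-Tp in 6 of 6, and mt-Ts1 was above mt-Ty in 6 of 6. At the other 4 steps the neighbours did not differ beyond their spread, with mt-Tq above mt-Tn, mt-Tc above mt-Ta and mt-Tp above mt-Ts1 in 4 of 6 libraries each, and mt-Te above mt-Tc in 2 of 6. The 5 abundant members held 87.2% to 95.4% of the light-strand tRNA counts of a library. Along the direction of transcription, from mt-Tp to mt-Tq, the mean levels per kb rose and fell without a steady order, since mt-Tp, the gene nearest the promoter, was below 5 of the other 7 and mt-Tq, the last, had the highest mean.

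The means of the 8 light-strand tRNAs per kb spanned 34.4-fold, with a median of 3643 CPM per kb, while those of the 14 heavy-strand tRNAs spanned from 42.4 (mt-Tl2) to 94098 (mt-Tm, the methionine tRNA) with a median of 855. No light-strand tRNA was at 0 in any library, whereas 3 heavy-strand tRNAs were at 0 in at least 1 library. mt-Tm alone made up 56.2% to 74.8% of all mitochondrial tRNA counts.

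**Figure D2:**
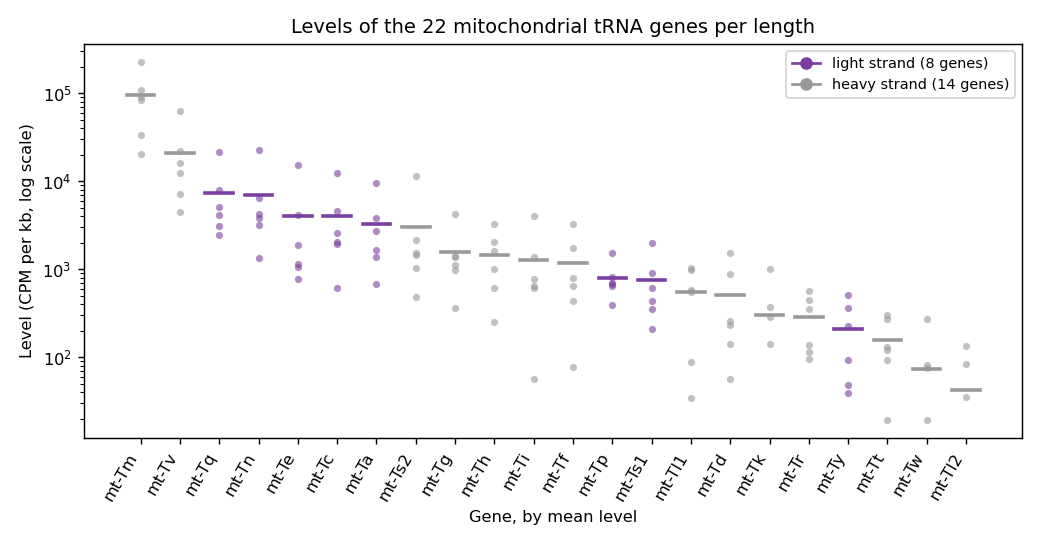
Level of the 22 mitochondrial tRNA genes in CPM per kb of gene length (log axis), ordered by mean, with 1 point per library and a bar at the mean of the 6 libraries, purple for the light strand and grey for the heavy strand; 7 values of 0, all in heavy-strand genes, are not drawn as points. The 5 abundant light-strand tRNAs fill ranks 3 to 7 behind mt-Tm and mt-Tv, and mt-Tp, mt-Ts1 and mt-Ty lie lower.

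Adjacent genes of the same DNA gave very different counts. A set of 8 pairs of neighbours, each with a light-strand tRNA, was compared within libraries, as the ratio of counts per base with 1 count added to each gene. For each of the 8 ratios all 6 libraries lay on the same side of equality, and an exact two-sided sign-flip permutation test gave p = 0.031 for each, the smallest p that 6 libraries allow (0.031 after Benjamini-Hochberg adjustment over the 8 ratios). Leaving any library out makes 0.0625 the smallest possible p, so no ratio keeps p under 0.05 without 1 library, although every mean kept its sign.

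Per base, the light-strand tRNA was higher than its neighbour on the opposite strand in the 4 such pairs of this set. It was not higher in 2 of the 4 pairs added after seeing the data. In counts, the tRNA was not consistently higher in any of the 4 added pairs. mt-Tq, which overlaps the isoleucine tRNA mt-Ti by 3 bases, was 7.41-fold higher per base (mean log2 ratio 2.89, SD 1.05, n = 6). mt-Ta, 1 base away from the tryptophan tRNA mt-Tw, was 32.1-fold higher (mean log2 ratio 5.01, SD 1.46). mt-Tw had 12 counts over the 6 libraries against 784 for mt-Ta, and the size of this ratio depended on the count added, the mean log2 ratio being 5.48 with 0.5 and 3.61 with 5 counts.

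mt-Tp, directly next to the threonine tRNA mt-Tt, was 4.93-fold higher (mean log2 ratio 2.30, SD 0.98), on 185 counts against 33. mt-Ts1, 3 bases from the aspartate tRNA mt-Td, was 1.82-fold higher (mean log2 ratio 0.86, SD 0.62), with single libraries from 1.01- to 3.04-fold. This was the smallest of the 4 differences, and with counts in place of counts per base its mean log2 ratio was 0.84 and its exact permutation p rose to 0.0625. The authors counted reads with regard to strand, so reads of genes on opposite strands were kept apart.

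The remaining genes within 10 bases of a light-strand tRNA were then compared in the same way, and all lay on the opposite strand. mt-Tq was 12.97-fold lower per base than mt-Tm, 2 bases away on its other side (mean log2 ratio -3.70, SD 0.73), on 1831 counts against 21855. mt-Ty was 1.94-fold lower per base than mt-Co1, the mRNA of a cytochrome c oxidase subunit (mean log2 ratio -0.95, SD 0.69), whereas mt-Ts1, which overlaps the other end of mt-Co1 by 3 bases, was 1.76-fold higher (mean log2 ratio 0.82, SD 0.82). mt-Te was 15.8-fold higher per base than mt-Cytb, the cytochrome b mRNA (mean log2 ratio 3.98, SD 1.49). All 6 libraries had the same sign in each of these 4 pairs, with an exact two-sided sign-flip permutation p of 0.031 each. The mRNAs are far longer than the tRNAs, so these ratios depend on the unit. In counts instead of counts per base, mt-Ty was 44.7-fold and mt-Ts1 12.7-fold lower than mt-Co1. mt-Te was higher than mt-Cytb in counts in 3 of 6 libraries.

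Along the light strand itself, the 4-gene cluster mt-Ta, mt-Tn, mt-Tc and mt-Ty was uneven. mt-Tn was 2.00-fold higher per base than mt-Ta, 2 bases away (mean log2 ratio of mt-Ta over mt-Tn -1.0, SD 0.33), and 1.74-fold higher than mt-Tc (mean log2 ratio 0.80, SD 0.32), from which it is separated by 32 bases. These 2 ratios had the smallest spread of the 8. mt-Tc was 14.9-fold higher than mt-Ty, 2 bases away (mean log2 ratio 3.90, SD 1.2), with 957 counts against 47 over the 6 libraries, and 3.15 on the log2 scale with 5 counts added. mt-Te was 49.7-fold higher per base than the adjoining mRNA mt-Nd6, a subunit of respiratory complex I (mean log2 ratio 5.63, SD 1.49, single libraries from 15.04- to 174-fold). The genes are 69 and 519 bases long, and in counts instead of counts per base the difference was 6.60-fold (mean log2 ratio 2.72). Reads that cover 2 neighbouring genes of the same strand were dropped as ambiguous in the authors' counting. Ambiguous reads were 0.978% to 2.71% of the aligned reads of a library.

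**Figure D3:**
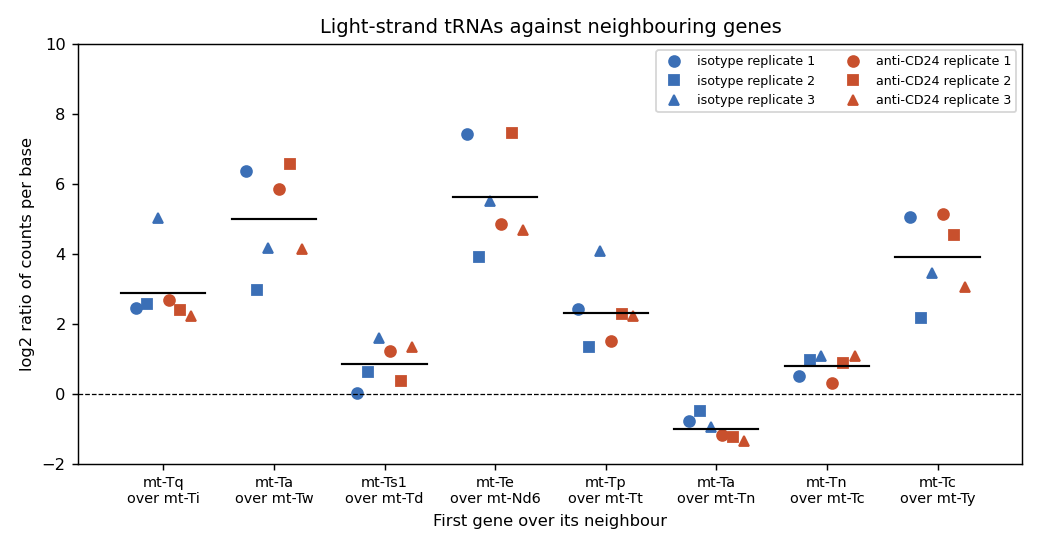
log2 ratio of counts per base (1 count added) of light-strand tRNAs over neighbouring genes, 1 point per library, blue for isotype and red for anti-CD24 with marker shape for the replicate number, black bars at the mean of the 6 libraries and a dashed line at equality. All 6 libraries lie on the same side of the line for each of the 8 ratios, with mt-Ta over mt-Tn the only ratio below it.

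The shares of the 5 abundant members within the 8 varied less between libraries than their levels did. mt-Tq made up 29.4% ± 5.4 (SD, n = 6) of their counts, mt-Tn 24.9% ± 3.4, mt-Tc 13.4% ± 3.4, mt-Ta 12.1% ± 2.4 and mt-Te 12.0% ± 4.1. The remaining shares were 4.25% ± 2.71 for mt-Tp, 3.02% ± 0.69 for mt-Ts1 and 0.907% ± 0.740 for mt-Ty. The share of mt-Tn was 23.2%, 23.9% and 20.1% in the isotype libraries and 24.9%, 27.1% and 30.2% in the anti-CD24 libraries, and it was the only one of the 8 shares whose conditions did not overlap. The difference of 4.96 percentage points had an exact two-sided permutation p of 0.1, the smallest that 3 against 3 libraries allow, and 11.3% of all 1501 tested genes also had ranges that did not overlap when counted relative to the same 8 tRNAs, so 1 of 8 was close to the background. Within the pairs of libraries that shared a run, the share of mt-Tn was higher after anti-CD24 by 1.63, 3.17 and 10.1 percentage points, and that of mt-Tc, whose conditions overlapped, by 3.33, 2.57 and 4.67. The ratio of mt-Ta to mt-Tn shifted with it, from a mean log2 of -0.73 ± 0.23 after isotype to -1.27 ± 0.09 after anti-CD24 (exact permutation p = 0.1), and the other 7 neighbour ratios overlapped between conditions, with exact permutation p of 0.4 or more.

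**Figure D4:**
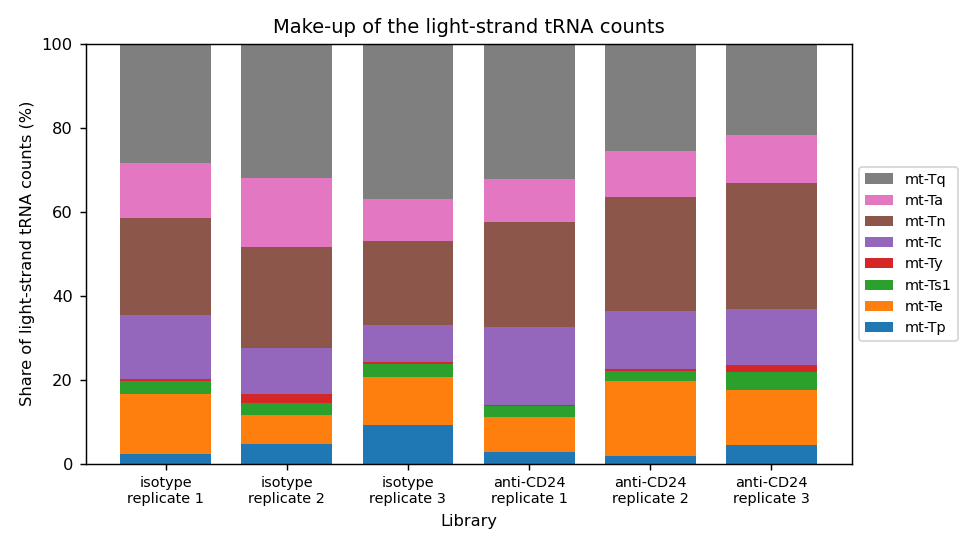
Share in percent of each gene among the counts of the 8 light-strand mitochondrial tRNAs (bars stacked to 100%), 1 bar per library, from mt-Tp at the bottom to mt-Tq at the top in the order of transcription. mt-Tq and mt-Tn are the largest parts in every library, and the part of mt-Tn is 20.1% to 23.9% in the isotype and 24.9% to 30.2% in the anti-CD24 libraries.

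As a share of all mitochondrial tRNA counts, the 8 light-strand genes made up 19.96% (95% Wilson interval 18.6% to 21.4%), 11.2% (9.74% to 12.7%) and 20.5% (18.7% to 22.4%) in the isotype libraries. In the anti-CD24 libraries they made up 22.7% (21.1% to 24.4%), 21.3% (20.7% to 21.8%) and 11.3% (10.6% to 12.0%). Isotype replicate 2 and anti-CD24 replicate 3 were the low libraries, 1 in each condition. The means were 17.2% ± 5.2 and 18.4% ± 6.2 (SD, n = 3), and the difference of 1.22 percentage points was smaller than the spread between libraries of either condition. It was below 0 without isotype replicate 2 (-1.80), anti-CD24 replicate 1 (-0.93) or anti-CD24 replicate 2 (-0.20), and 4.80 without anti-CD24 replicate 3. With mt-Tm, most of the denominator, left out of it, an alternative added after seeing the data, the difference was -6.01 percentage points.

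The comparison of anti-CD24 with isotype asked whether stimulation of CD24 changed the RNA that the vesicles carried. None of the 8 light-strand tRNAs passed edgeR's quasi-likelihood test at an adjusted p of 0.05, with 0 of 8 called against 0.0666% of the 1501 genes tested. At an unadjusted p under 0.05 there was 1 of 8, against 7.99% of all genes, and DESeq2 called 0 of 8, also at an unadjusted p under 0.05. All 8 passed the filter of 1.0 CPM in 3 libraries, and the CPM ranges of the conditions overlapped for all 8, whereas 12.3% of all genes had ranges that did not overlap. Since vesicle RNA was sequenced in bulk and scaled to its total, a difference in the kinds of vesicle collected and a difference in the RNA carried per vesicle cannot be told apart.

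The fitted log2 fold changes of anti-CD24 over isotype were all above 0 but had wide intervals. The highest was that of mt-Te at 1.56 (SE 0.79, unadjusted p = 0.0498, adjusted p = 0.54 by edgeR's quasi-likelihood test with Benjamini-Hochberg adjustment), and the lowest that of mt-Tp at 0.50 (SE 0.92, 95% interval -1.30 to 2.29). mt-Tn had 1.45 (95% interval -0.05 to 2.95), mt-Tc 1.30 (-0.25 to 2.85), mt-Ty 1.23 (-1.09 to 3.55) and mt-Ts1 1.11 (-0.73 to 2.95). mt-Tq had 0.89 (-0.59 to 2.37) and mt-Ta 0.89 (-0.66 to 2.45). Apart from that of mt-Te, which began at 0.0016, the intervals included no change, and all 8 reached beyond a 4-fold increase. The intervals and p-values of this fit rest on a spread between libraries pooled over the tested genes, not on each tRNA's own spread.

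The median log2 fold change of the 8 was 1.17, beside 1.26 for the 14 heavy-strand tRNAs, of which 0 were called by edgeR, 1.10 for the 13 mitochondrial mRNAs, and -0.29 for all genes tested, of which 44.7% were above 0. The scaling moved these values: with rRNA and ribozyme genes removed the median of all genes was -0.07, and with DESeq2 it was -0.97. Relative to the median of all genes, the median of the 8 was higher by 1.46 as fitted, by 1.81 with rRNA and ribozyme genes removed and by 1.48 with DESeq2. It was higher by only 0.44 with at least 10 counts required in every library. This filter removed mt-Ty, mt-Ts1 and mt-Tp and left 129 genes outside the 8. The log2 fold changes of the retained members were then lower too, from -0.09 (mt-Ta) to 0.63 (mt-Te). The median of the 8 was higher than that of all genes by 0.54 without isotype replicate 3 and by 0.54 without anti-CD24 replicate 2.

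The 8 genes differed in a common direction within each pair of same-numbered libraries, but the direction was not the same in each pair. In pair 1, all 8 had a lower CPM in the anti-CD24 library than in the isotype library, at 0.261- to 0.563-fold for the 7 genes other than mt-Ty. In pair 2 all 8 were higher, at 1.90- to 13.6-fold for those 7 genes, with mt-Te the most and mt-Tp the least. In pair 3 all 8 were higher as well, at 1.05- to 3.29-fold for the 7 genes. The same counts of direction were found after TMM scaling, while relative to the counts outside rRNA and ribozyme genes 8 of 8 were lower in pair 1 and 7 of 8 higher in each of pairs 2 and 3. Relative to all mitochondrial tRNA counts the directions were mixed, with 5, 6 and 1 of the 8 higher after anti-CD24 in pairs 1, 2 and 3. Of the 14 heavy-strand tRNAs, 11 were lower in CPM in pair 1, 12 were higher in pair 2 and 14 were higher in pair 3.

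Summed over the 8 genes, the isotype libraries had 1976, 1132 and 469 CPM and the anti-CD24 libraries 909, 5922 and 1001 CPM. In anti-CD24 replicate 2 the heavy-strand tRNAs were also at their highest, with 21919 CPM against 1819 to 9017 CPM in the other 5 libraries. Its mitochondrial rRNAs, at 32323 CPM, were likewise the highest of the 6, and rRNA and ribozyme genes took 84.8% of its counts, the lowest share of the 6. Its mitochondrial mRNAs, at 4682 CPM, were not the highest, as isotype replicate 2 had 4876 CPM. Whether these differences had a part in the result was not tested.

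The fold changes therefore rested on single libraries. Without anti-CD24 replicate 2, the log2 fold changes of mt-Tq (-0.30), mt-Ta (-0.32), mt-Te (-0.11) and mt-Tp (-0.17) were below 0 and the median of the 8 was 0.05. Without anti-CD24 replicate 1, 3 of the 8 were called by edgeR, namely mt-Tn (log2 fold change 2.36, adjusted p = 0.0056), mt-Te (2.60, adjusted p = 0.0056) and mt-Tc (2.16, adjusted p = 0.035), against 4.29% of the 1119 genes then tested. Anti-CD24 replicate 1 was the library that held the 99 globin counts, and the part of these in the result was not tested. With any of the other 5 libraries left out, 0 of the 8 were called by edgeR.

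**Figure D5:**
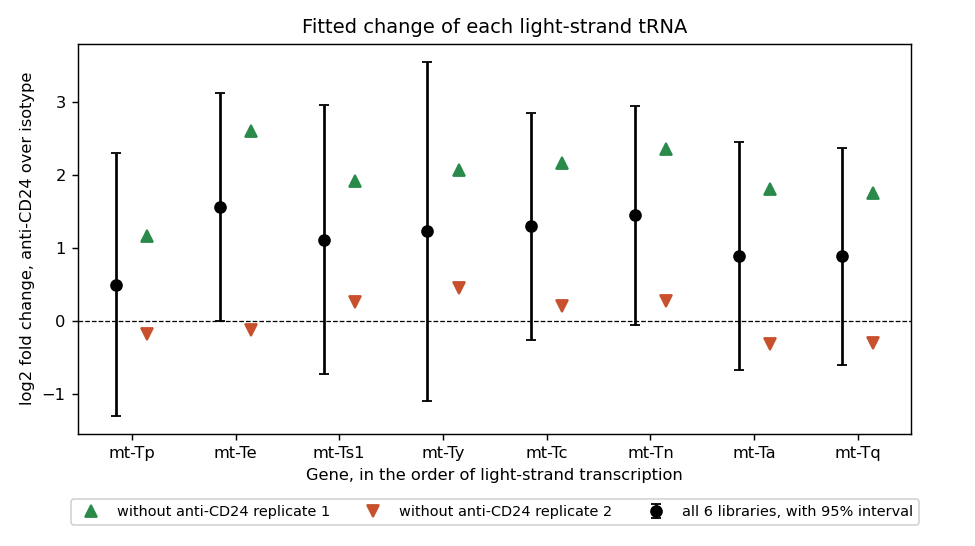
Fitted log2 fold change of anti-CD24 over isotype for each light-strand tRNA, in the order of transcription, with all 6 libraries (black points, bars the 95% interval of edgeR's quasi-likelihood fit) and without anti-CD24 replicate 1 (green) or 2 (red), with a dashed line at no change. All 8 black points lie above 0 with intervals that reach 0 or nearly so, the green points lie higher, and 4 of the 8 red points lie below 0.

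The nuclear genes that make mitochondrial transcripts and process, charge or modify these tRNAs had few counts in the vesicle RNA, as did nuclear genes in general. Of 31 such genes, 10 had any count, 21 were at 0 in all 6 libraries and 0 passed the filter, so 0 could be tested. Of all 21607 nuclear protein-coding genes, 66.5% were likewise at 0 in every library and 3.98% passed the filter. Together the 31 genes had 1 to 7 counts per isotype library and 1 to 4 per anti-CD24 library. The largest number belonged to Ears2, the enzyme that charges mt-Te, with 6 counts in all (3, 0 and 3 after isotype and 0, 0 and 0 after anti-CD24), followed by Gtpbp3, a tRNA modification enzyme, with 4. Yars2, which charges mt-Ty, Qrsl1, a subunit of the enzyme that completes glutamine charging of mt-Tq, Hsd17b10, a subunit of mitochondrial RNase P, and Cdk5rap1, another modification enzyme, had 2 counts each. Trmt10c, Elac2 and Trnt1, which cut and finish the tRNA ends, were at 0. At this depth neither their presence at low level nor a difference between conditions was detectable.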

How the data were processed

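The authors trimmed IonTorrent PGM reads of unfragmented EV RNA with the FASTX toolkit (minimum length 28), aligned them with tmap and deposited raw counts per gene from htseq-count in union mode with regard to strand. The submitters' processing notes name HTSeq 0.5.4p5 and GRCm38.p4. The 5 summary lines of each file were left out. The 8 members and all gene lists were chosen with earlier results of these data known; the genes named were the members, their neighbours, the extremes of the heavy-strand tRNAs, the 5 genes of most similar profile and the processing genes with the most counts.

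Genes with 1.0 CPM or more in 3 libraries were tested with edgeR 4.0.16 (R 4.3.3; TMM, quasi-likelihood, condition only, Benjamini-Hochberg at 0.05), and with DESeq2 1.42.0 as an alternative. Standard errors were derived from the fold change and its F statistic. The script was tested on simulated data. Sequence matches came from BLAST+ 2.17.0, ratios and exact tests from Python 3.11.15 with scipy 1.17.1. The study calls the libraries biological replicates, and p-values measure the spread between these libraries. Wilson intervals and floors cover counting error only. In the edgeR fit with all 6 libraries, intervals and p-values reflect a spread between libraries pooled over the tested genes, not each gene's own. Run names place same-numbered libraries in 1 run, and their deviations from the condition means correlated at -0.03, -0.02 and -0.11 over the tested genes. Alternatives were other filters and scalings, the replicate block, added counts of 0.5 and 5, and each library left out. Those added after seeing the data were mt-Tm left out of the denominator, the other genes within 10 bases of a member, and the block with rRNA and ribozyme genes removed. The comparisons of shares and ratios between conditions were also added then.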

Additional observations from a re-analysis of the deposited data

How the results depend on the processing

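The count of light-strand tRNAs called stayed at 0 of 8 under each filter, scaling and test tried with all 6 libraries. Of all genes, 2 were called with no filter and 0 with at least 10 counts in every sample or with DESeq2. With at least 10 counts in every sample, mt-Tq (-0.021) and mt-Ta (-0.090) had log2 fold changes below 0, and mt-Ty, mt-Ts1 and mt-Tp were removed. With DESeq2, mt-Tp was at -0.17. Relative to mitochondrial tRNA counts, with no test, the mean log2 differences were -0.23 for mt-Tq, -0.18 for mt-Ta, -0.25 for mt-Ty, -0.0020 for mt-Ts1 and -0.69 for mt-Tp, and 0.36 for mt-Tn, 0.46 for mt-Tc and 0.30 for mt-Te. The causes were not tested.

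With the replicate number as a block, 0 genes were called, also with rRNA and ribozyme genes removed, and the median log2 fold change of the 8 was 1.06 and 1.55. The block was run in edgeR only, where it changed no other call; shares and ratios were not fitted with it.

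With single libraries left out, 0 to 48 genes and 0 to 3 of the 8 were called, with 48 and 3 without anti-CD24 replicate 1, 3 genes without anti-CD24 replicate 3, and 0 genes without isotype replicate 1 or anti-CD24 replicate 2. The log2 fold changes ran from -0.30 to 1.75 for mt-Tq, -0.32 to 1.81 for mt-Ta, 0.27 to 2.42 for mt-Tn, 0.21 to 2.60 for mt-Tc, 0.29 to 2.07 for mt-Ty, 0.26 to 2.05 for mt-Ts1, -0.11 to 2.97 for mt-Te and -0.17 to 1.16 for mt-Tp. The light-strand share of mitochondrial tRNA counts ran from 16.8% to 19.1%, and its difference between conditions from -1.80 to 4.80 percentage points. With mt-Tm left out of the denominator, an alternative chosen after seeing the data, the share was 47.7% and the difference -6.01 percentage points. The mean log2 neighbour ratios ran from 2.47 to 3.02 (mt-Tq over mt-Ti), 4.70 to 5.42 (mt-Ta over mt-Tw), 0.71 to 1.03 (mt-Ts1 over mt-Td), 5.27 to 5.98 (mt-Te over mt-Nd6), 1.94 to 2.50 (mt-Tp over mt-Tt), -1.10 to -0.93 (mt-Ta over mt-Tn), 0.74 to 0.90 (mt-Tn over mt-Tc) and 3.65 to 4.25 (mt-Tc over mt-Ty). Counts in place of counts per base gave 0.84 for mt-Ts1 over mt-Td, with an exact permutation p of 0.0625, and 2.72 for mt-Te over mt-Nd6. At these depths mt-Ty, mt-Tw and mt-Tt, with few counts, gave the least certain values.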

Other observations

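Among the genes with enough counts to compare, the profiles most like that of the summed light-strand mitochondrial tRNAs were those of nuclear-encoded Y RNAs. Heavy-strand mitochondrial tRNAs followed closely. Likeness was the root mean square distance between the log2(CPM + 1) profile of a gene over the 6 libraries and that of the summed CPM of the 8 tRNAs. Each profile was centred on its own mean, and the 129 other genes with at least 10 counts in every library were compared. Of the heavy-strand tRNAs, only mt-Tv, mt-Tm, mt-Tg, mt-Th and mt-Ts2 met this rule, and the others were not compared. The abundant members, mt-Tq and mt-Tn first, weigh most in this sum. The nearest were Rny3 at 0.32 and Rny1 at 0.35, the genes of Y RNAs, small non-coding RNAs that bind the Ro60 protein, both on chromosome 6. They were followed by the heavy-strand tRNAs mt-Tg at 0.37, mt-Ts2 at 0.38 and mt-Tv at 0.50. The median distance was 0.88, and a gene with the same level in every library would lie at 1.14. All profiles come from the same 6 libraries and share their scaling and depth, so the distances describe these libraries and carry no test.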
